A study of Mus musculus with 29 samples.

Results

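The genes described here are the Phase II conjugating enzymes of the mouse liver: the glutathione S-transferases (Gst), the UDP-glucuronosyltransferases (Ugt) and the cytosolic sulfotransferases (Sult). They were chosen by symbol from the deposited expression table, which gave 61 members (22 Gst, 20 Ugt and 19 Sult genes) of 22187 genes listed. The rule used symbols and no measured value, though earlier results of these data were known when it was set.

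Each superfamily attaches a polar group to a reactive or fat-soluble molecule, so that it can leave the cell and be excreted in bile or urine. Gst enzymes add glutathione to electrophiles such as epoxides and lipid aldehydes, Ugt enzymes add glucuronic acid from UDP-glucuronate, and Sult enzymes add sulfate from the donor PAPS. Hepatocytes are the main site of this chemistry, many of the genes respond to the nuclear receptors CAR and PXR or to the stress factor NRF2, and several differ between male and female mice.

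C57BL/6 mice that were labelled IL17RA-/- (without the receptor for the cytokine IL-17A) or WT all received the liver carcinogen diethylnitrosamine (DEN), 25 mg/kg into the peritoneum, when 2 weeks old, and were then kept on the diets for 18 weeks. Poly(A) RNA of tumours and of non-tumour liver was sequenced. The sample labels name the feeding HFD with alcohol or HFD alone, here called alcohol and HFD, while the series text speaks of a liquid ethanol feeding and a pair-fed arm. The tumours comprised 4 libraries of IL17RA-/- mice on alcohol, 3 of WT mice on alcohol, 3 of IL17RA-/- mice on HFD and 3 of WT mice on HFD, and the non-tumour livers 5, 5, 3 and 3 libraries in the same order of groups. The labels give no animal, sex, age at collection or clone for a library, and none ties a tumour to a non-tumour liver, so that p-values measure the spread between these samples. They also do not say which part of the Il17ra gene was removed or in which cells.

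Depth was 3213695 to 9660584 counts per library, which puts a count of 3 at 0.311 to 0.934 CPM (counts scaled so that each library sums to 1000000). Il17ra RNA itself was not lower in the libraries labelled IL17RA-/-. It stood at 42.4 to 55.8 CPM in IL17RA-/- alcohol tumours against 32.3 to 33.8 CPM in WT alcohol tumours, and at 54.4 to 62.9 CPM in IL17RA-/- HFD tumours against 22.9 to 48.5 CPM in WT HFD tumours. In non-tumour liver it stood at 15.9 to 37 CPM in the 8 libraries labelled IL17RA-/- and at 16.1 to 42.5 CPM in the 8 WT libraries. The genotype groups are therefore called by their labels. The 10 hepatocyte markers were present throughout, with a summed level of 100600 to 210730 CPM in tumours and 76957 to 114810 CPM in non-tumour liver. WT HFD tumour 4 stood apart for the members: of the 53 members tested, 29 (54.7%) had their highest tumour value in that library, against 28.5% of all genes tested.

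The start regions of 4 members are shown first. RefSeq windows from 250 bases before to 50 bases after each annotated start were matched for 53 members (64 windows of 32851 in all, mouse build GRCm38.p6) and searched on both strands for TGACNNNGC, the core of the antioxidant response element bound by NRF2, and GCGTG, the core bound by the dioxin receptor AHR. Capitals in the lines below mark these letters wherever they occur, reading 5′ to 3′ along the gene's strand. Gsta3 (chr1:21240335-21240634, plus strand) is shown as a gene with less RNA in tumours that holds the NRF2 core, and Gstm5 (chr3:107895604-107895903, plus strand) as one with more. Gstp1 (chr19:4037863-4038162, minus strand) and Gstp2 (chr19:4042172-4042471, minus strand) are shown as neighbours of the same class that moved in opposite directions.
Gsta3: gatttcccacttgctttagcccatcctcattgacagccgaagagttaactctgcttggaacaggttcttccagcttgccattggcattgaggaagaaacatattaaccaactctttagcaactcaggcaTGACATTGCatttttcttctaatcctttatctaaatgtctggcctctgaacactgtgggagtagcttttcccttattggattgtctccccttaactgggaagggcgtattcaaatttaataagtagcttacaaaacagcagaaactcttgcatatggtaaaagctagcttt
Gstm5: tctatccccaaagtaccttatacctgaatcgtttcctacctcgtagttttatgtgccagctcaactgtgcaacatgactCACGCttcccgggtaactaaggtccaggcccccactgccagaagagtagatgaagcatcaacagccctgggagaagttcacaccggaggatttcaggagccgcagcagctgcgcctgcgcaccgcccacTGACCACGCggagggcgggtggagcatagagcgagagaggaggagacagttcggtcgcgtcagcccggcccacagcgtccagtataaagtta
Gstp1: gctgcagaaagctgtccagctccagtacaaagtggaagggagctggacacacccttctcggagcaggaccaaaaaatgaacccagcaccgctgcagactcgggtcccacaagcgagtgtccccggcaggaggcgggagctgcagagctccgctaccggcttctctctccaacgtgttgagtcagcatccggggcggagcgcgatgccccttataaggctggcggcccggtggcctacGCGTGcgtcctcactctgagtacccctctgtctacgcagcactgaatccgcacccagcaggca
Gstp2: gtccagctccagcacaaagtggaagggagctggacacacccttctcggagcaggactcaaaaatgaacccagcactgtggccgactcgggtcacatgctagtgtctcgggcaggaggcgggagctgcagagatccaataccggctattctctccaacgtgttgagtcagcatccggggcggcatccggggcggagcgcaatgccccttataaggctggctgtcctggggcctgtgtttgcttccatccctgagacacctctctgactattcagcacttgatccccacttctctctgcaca

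TGACNNNGC was in 3 of 64 windows (4.69%) against 12.4% of all windows, namely Gsta3 at 121 bases and Gstm5 at 42 bases before the start, and Gstm7. GCGTG was in 13 of 64 windows (20.3%) against 32.4% of all windows. The windows of Gstp1 and Gstp2 aligned over 282 bases, of which 243 (86.2%) were identical, with a longest identical run of 43 bases. These matches describe letters in the windows only.

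Tumours carried less conjugating-enzyme RNA than non-tumour liver. The summed level of all members was 6525 ± 3480 CPM in tumours and 11842 ± 1297 CPM in non-tumour liver (SD, n = 13 and 16). Ugt RNA made up most of the difference, at 1974 ± 1052 CPM in tumours and 5546 ± 798 CPM in non-tumour liver. Sult RNA stood at 405 ± 99.8 CPM in tumours and 1014 ± 277 CPM in non-tumour liver, while Gst RNA stood at 4146 ± 2379 CPM in tumours and 5282 ± 629 CPM in non-tumour liver, with overlap in each case. For Ugt only WT HFD tumour 4 reached the non-tumour range. In bulk tissue, fewer cells that make an enzyme and less RNA per cell cannot be told apart.

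**Figure D1:**
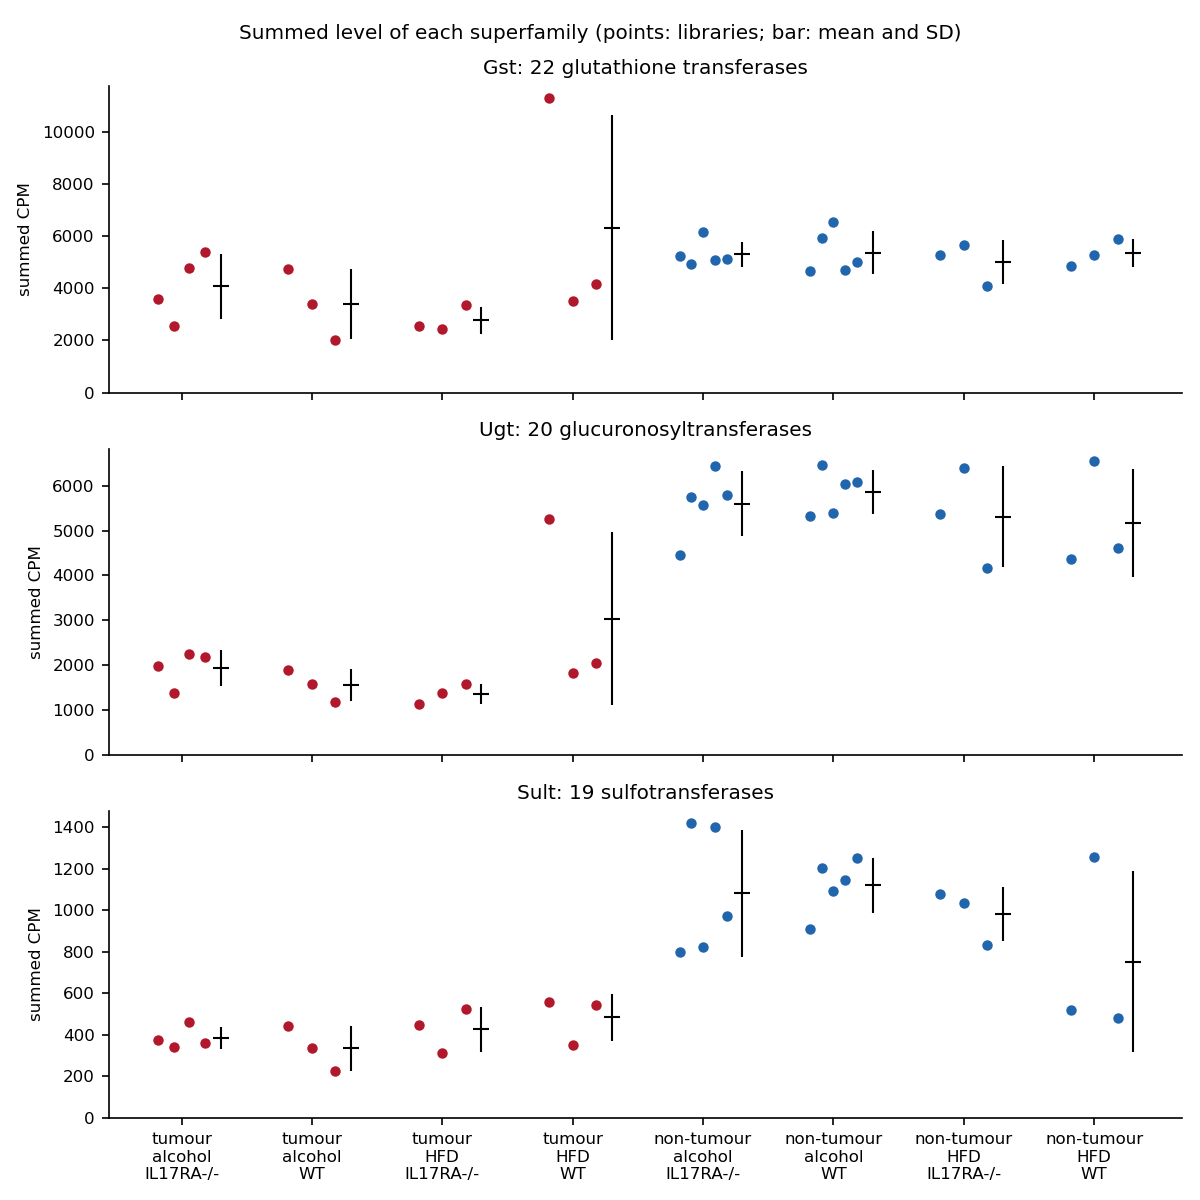
Summed CPM of the Gst, Ugt and Sult members in each library, 1 point per library, by group, with tumours left of non-tumour liver and each group's mean and SD beside its points. WT HFD tumour 4 lies highest among tumours for Gst (11315 CPM) and Ugt (5253 CPM).

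Members were tested with limma on log2(CPM + 1), as the mean of the tumour minus non-tumour difference over the 4 diet and genotype groups, and were called at a Benjamini-Hochberg adjusted p under 0.05 over all genes tested. A gene was tested if it reached 1 CPM in at least 3 libraries, which 53 of the 61 members did. Of these, 40 (75.5%) were called, 8 higher (15.1%) and 32 lower (60.4%) in tumours. The background was 63.6% of 13586 genes called, 36.6% higher and 27% lower. The median difference of the members was −0.64 (log2), against 0.09 for all genes tested. All 19 Ugt members tested had a negative difference and 16 fell, with a median of −1.16. Of 20 Gst members 10 fell and 2 rose (median −0.25), and of 14 Sult members 6 fell and 6 rose (median 0.37). Among these rises, Sult2a1, Sult2a2, Sult2a5, Sult2a6 and Sult2b1 stayed under 1 CPM in every non-tumour library. They passed the filter through tumours alone, which largely fixed their direction in advance. Sult4a1, the other Sult gene that rose, reached 1 CPM in fewer than 3 non-tumour libraries, so it too passed only with tumours. The Sult median includes all 6. Of the members that fell, Sult2a7 and Ugt1a10 passed the filter through non-tumour liver alone. Sult5a1 and Ugt2b38, which also fell, reached 1 CPM in fewer than 3 tumours and so passed only with non-tumour liver. The direction of these members was therefore also largely fixed in advance.

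**Figure D2:**
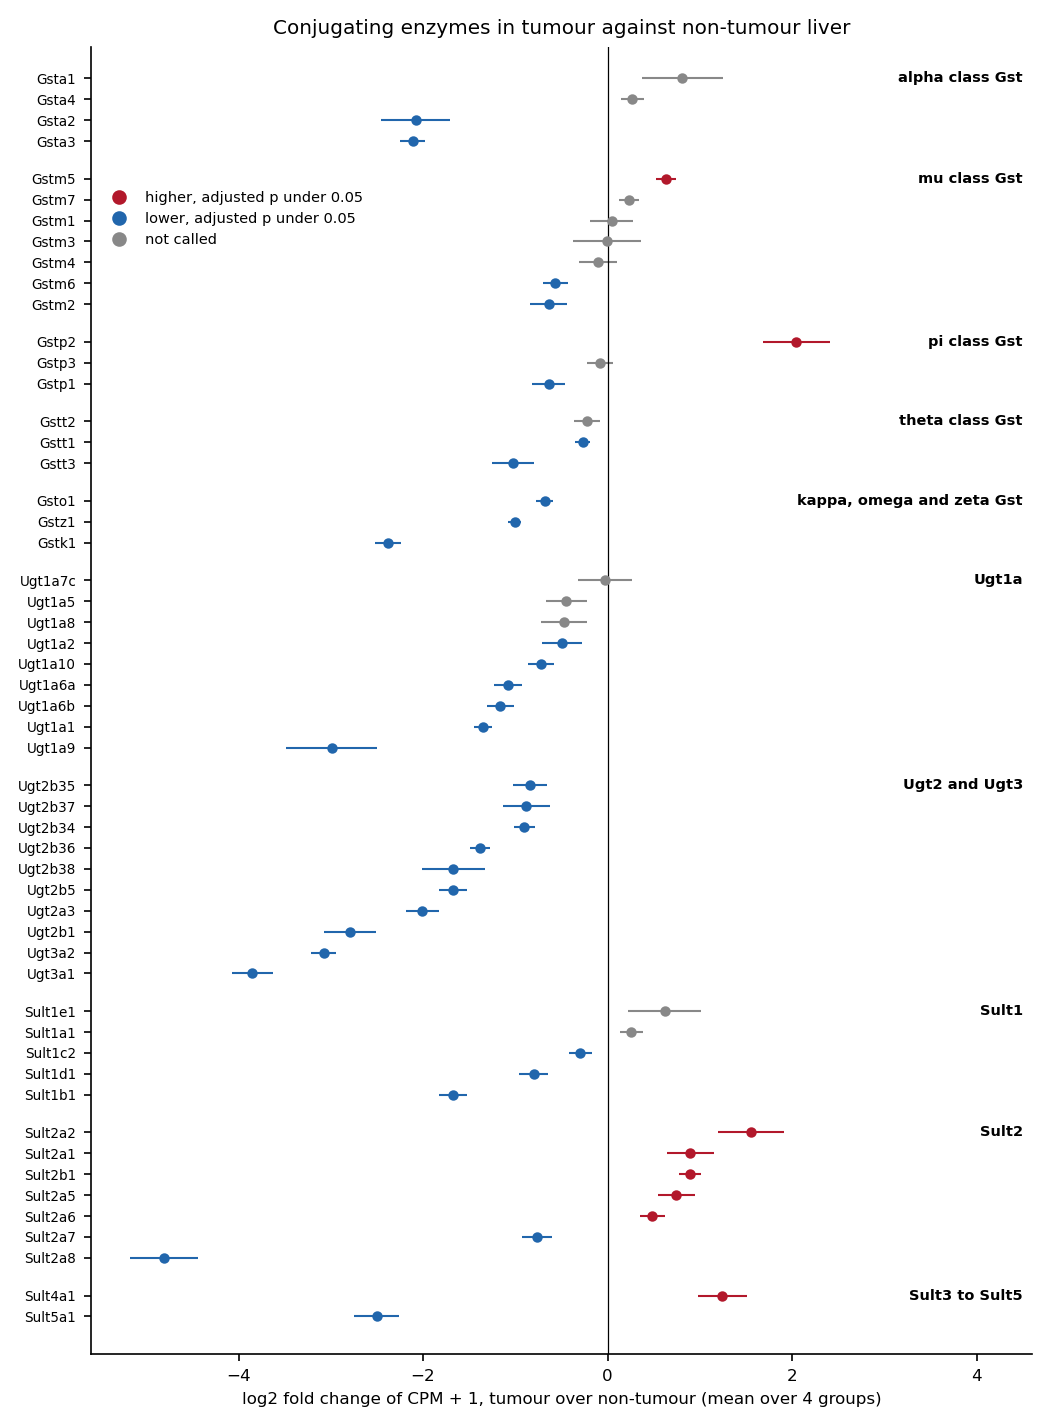
Tumour minus non-tumour difference in log2(CPM + 1) for the 53 members tested, with bars for ± 1 standard error, grouped by family and coloured by call. The Ugt2 and Ugt3 genes all lie left of 0, and the members to the right of 0 that were called are Gstp2, Gstm5 and Sult genes.

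Among the Ugt genes, the 10 tested members of the Ugt2 and Ugt3 families all fell (median −1.67). Ugt3a1 and Ugt3a2 belong to a small family whose human enzymes use sugars other than glucuronic acid. Ugt3a1 had 2.04, 6.5 and 33.8 CPM (lowest, median and highest) in tumours, against 84.9, 112 and 149 CPM in non-tumour liver, a difference of −3.85 ± 0.22 (log2, SE, limma adjusted p = 7.01e-13). Ugt3a2 had 23.4, 40.2 and 163 CPM in tumours, against 322, 399 and 523 CPM in non-tumour liver (−3.08 ± 0.14, limma adjusted p = 1.36e-14). Neither gene's tumour range reached its non-tumour range.

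The Ugt2b enzymes conjugate steroids and many drugs. Ugt2b5 was the most abundant Ugt gene per length in non-tumour liver, at 615.9 CPM per kilobase of exon, ahead of Ugt2b1 at 349.3 and Ugt2b36 at 340.4 CPM per kilobase. Ugt2b1 had 56, 89.5 and 543 CPM in tumours, against 451, 851 and 1426 CPM in non-tumour liver (−2.80 ± 0.28, limma adjusted p = 5.07e-09). Ugt2b5 had 188, 336 and 1230 CPM in tumours, against 780.4, 1192 and 1406 CPM in non-tumour liver (−1.68 ± 0.15, limma adjusted p = 6.77e-10). In both genes the tissues overlapped through WT HFD tumour 4 alone, the library with the highest tumour value. Ugt2a3 had 36.4, 68.9 and 196 CPM in tumours, against 214, 305 and 382 CPM in non-tumour liver (−2.01 ± 0.18), with no overlap. Ugt2b36, Ugt2b34, Ugt2b37 and Ugt2b35 fell by 1.38, 0.90, 0.88 and 0.84 on the log2 scale. The low member Ugt2b38 had 0, 0.335 and 1.95 CPM in tumours, against 0.496, 3.73 and 33.1 CPM in non-tumour liver (−1.67 ± 0.34, limma adjusted p = 0.000135). Ugt2b38 passed the filter only with non-tumour liver, so its call is no separate support for a fall. Ugt2b5 and Ugt2b38 share 41.7% and 37.4% of their 50-base stretches with other genes, mostly with each other.

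The Ugt1a genes share their last exons and differ in a first exon with its own promoter, at one locus of chromosome 1. Of 9 tested, 6 fell and none rose (median −0.72). Ugt1a1, the enzyme that conjugates bilirubin, had 157, 206 and 317 CPM in tumours, against 373, 566 and 705 CPM in non-tumour liver (−1.35 ± 0.10, limma adjusted p = 1.81e-11), with no overlap. Ugt1a6a and Ugt1a6b, which act on phenols, fell by 1.08 and 1.16 on the log2 scale. Ugt1a10 and Ugt1a2, both low, fell by 0.72 and 0.49, and Ugt1a5, Ugt1a7c and Ugt1a8 were not called. Ugt1a9 had 0.891, 6.83 and 458 CPM in tumours, against 36.7, 114 and 236 CPM in non-tumour liver (−2.99 ± 0.49, limma adjusted p = 9.87e-06). Its highest value was again WT HFD tumour 4, the only tumour above every non-tumour library, and without that library the difference was −3.50. Between 52.1% and 79.8% of the 50-base stretches in each Ugt1a transcript set also occur in another gene, so the split of reads between these genes is uncertain. Their sum was 505 ± 236 CPM in tumours and 1118 ± 145 CPM in non-tumour liver.

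**Figure D3:**
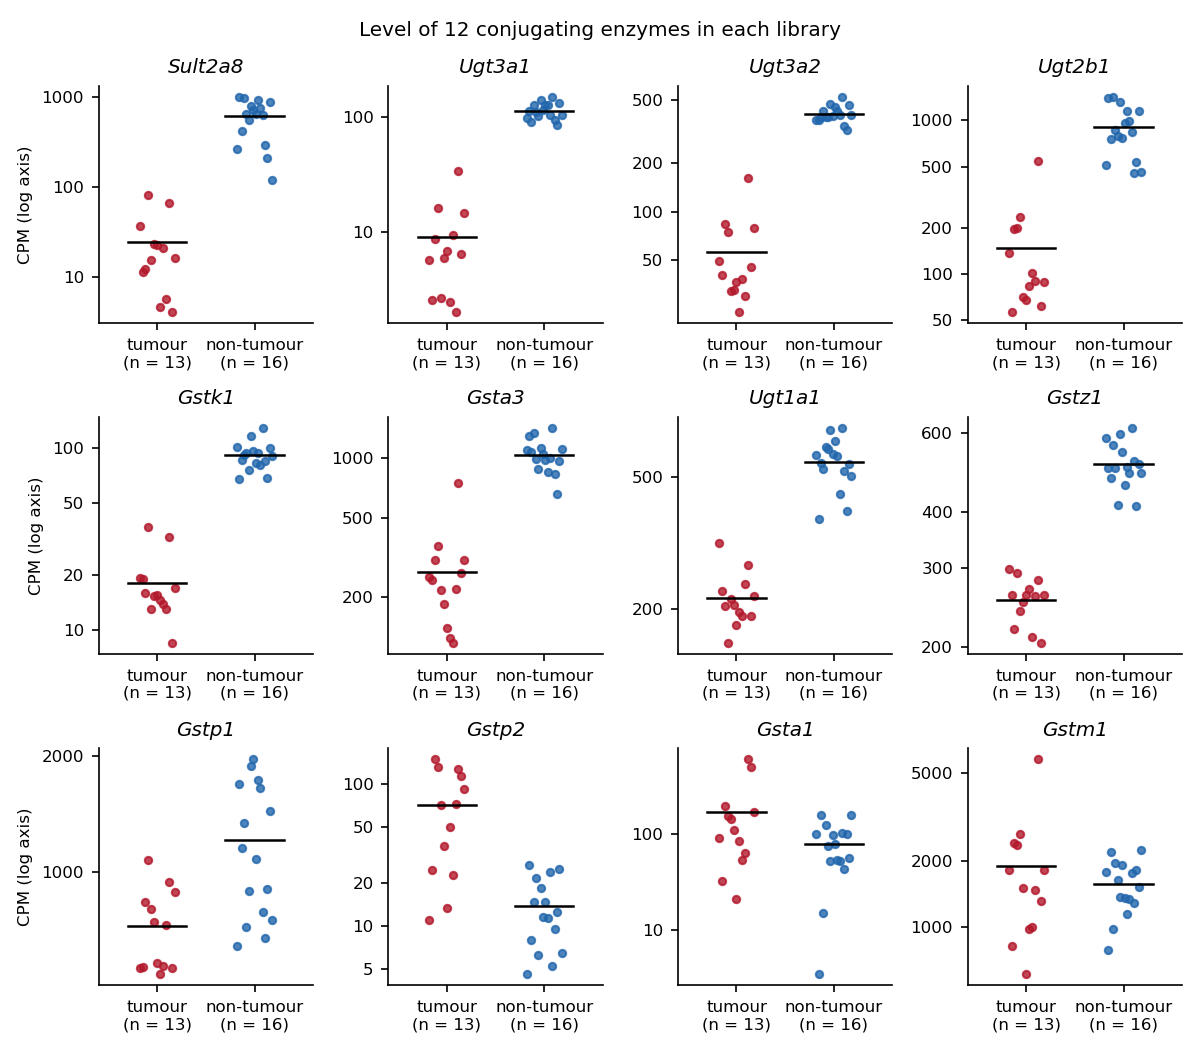
CPM (log axis) in each of the 29 libraries for 12 members, 1 point per library, with tumours left of non-tumour liver and a line at each mean. Ugt3a1, Ugt3a2, Gstk1 and Sult2a8 show no overlap of the tissues, and Gstp2 is higher in most tumours.

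Among the Gst genes, all 3 tested genes of the kappa, omega and zeta classes fell (median −1.01). Gstk1, an enzyme of mitochondria and peroxisomes, had 8.46, 15.6 and 37 CPM in tumours, against 67.9, 91.2 and 130 CPM in non-tumour liver (−2.38 ± 0.14, limma adjusted p = 1.04e-12). Gstz1, which is maleylacetoacetate isomerase in tyrosine breakdown, had 204, 261 and 298 CPM in tumours, against 411, 503 and 615 CPM in non-tumour liver (−1.005 ± 0.07, limma adjusted p = 1.03e-11). Both genes separated the tissues completely. Gsto1, a thiol transferase, fell by 0.68 on the log2 scale with overlap.

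The alpha class divided. Gsta3, which in mice detoxifies the epoxide of aflatoxin, had 117, 244 and 749 CPM in tumours, against 661, 1025 and 1415 CPM in non-tumour liver (−2.11 ± 0.14, limma adjusted p = 3.55e-12). Only WT HFD tumour 4 reached into the non-tumour range. Gsta2 fell by 2.08 on the log2 scale, and its 217 CPM in WT HFD tumour 4 compared with at most 41 CPM in the other tumours. Gsta1 was not called: it had 20.9, 111 and 605 CPM in tumours, against 3.49, 76.9 and 157 CPM in non-tumour liver (0.81 ± 0.44, limma adjusted p = 0.108). Its 2 highest tumours were both of WT mice on HFD, and without WT alcohol tumour 6 it was called (1.02, limma adjusted p = 0.0429). Gsta1 shares 90.5% and Gsta2 49.8% of its 50-base stretches with other genes, so the 2 genes' levels are uncertain, and their sum was 196 ± 225 CPM in tumours and 127 ± 54.1 CPM in non-tumour liver. Gsta4, the enzyme for the lipid aldehyde 4-hydroxynonenal, had a difference of 0.27 that was not called (limma adjusted p = 0.0695). Leaving out WT alcohol tumour 6, IL17RA-/- alcohol non-tumour 3 or IL17RA-/- HFD non-tumour 2 gave Gsta4 an adjusted p of 0.018, 0.0387 or 0.0381 by limma.

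Of 7 mu genes 2 fell, 1 rose and 4 were not called. Gstm1 was the most abundant Gst gene per length in both tissues, at 1284 CPM per kilobase in tumours and 1064 CPM per kilobase in non-tumour liver. It had 609, 1503 and 5831 CPM in tumours, against 784, 1578 and 2231 CPM in non-tumour liver, with a difference of 0.04 ± 0.23 (limma adjusted p = 0.883). Gstm3 had 50.7, 112 and 1540 CPM in tumours, against 46.2, 107 and 366 CPM in non-tumour liver (−0.01 ± 0.37, limma adjusted p = 0.987). The highest tumour value of each gene was WT HFD tumour 4. Gstm4 and Gstm7 were not called either (−0.11 and 0.23). Gstm2 and Gstm6 fell, and Gstm5 rose to 11.6 ± 3.09 CPM in tumours, against 6.86 ± 1.29 CPM in non-tumour liver (0.64 ± 0.11, limma adjusted p = 1.9e-05).

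The pi genes moved in opposite directions. In rats the pi enzyme is the classical marker of early liver foci after a carcinogen. Gstp1 (chr19:4035407-4037985, minus strand), the main pi gene in mouse liver and higher in males, had 541, 727 and 1075 CPM in tumours, against 639, 1118 and 1967 CPM in non-tumour liver (−0.64 ± 0.18, limma adjusted p = 0.00277). Gstp2 (chr19:4040285-4046023, minus strand) had 11.1, 71.7 and 151 CPM in tumours, against 4.57, 12 and 27.1 CPM in non-tumour liver, and rose by 2.05 ± 0.36 (limma adjusted p = 2.71e-05). By tumour, Gstp2 stood at 11.1, 24.7, 151 and 132 CPM in IL17RA-/- mice on alcohol, 71.7, 36.6 and 13.3 CPM in WT mice on alcohol, 49.9, 22.7 and 72.2 CPM in IL17RA-/- mice on HFD, and 128, 114 and 92.1 CPM in WT mice on HFD. The WT HFD tumours were all high, and each other group held tumours on both sides of 27.1 CPM, the highest non-tumour value. In 9 of 13 tumours Gstp2 lay above every non-tumour library. The rise left Gstp1 dominant, at 465.7 CPM per kilobase in tumours against 63.59 for Gstp2, and the summed pi level was 798 ± 216 CPM in tumours and 1227 ± 471 CPM in non-tumour liver. Gstp2 shares 49.1% of its 50-base stretches with Gstp1, and Gstp1 shares 33.7% with other genes, so reads could pass between them. Gstp3 had a difference of −0.08 that was not called.

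Of 3 tested theta genes Gstt1 fell by 0.27 and Gstt3 by 1.03 on the log2 scale, and Gstt2 was not called (−0.22, limma adjusted p = 0.184).

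Sult2a8, a bile acid sulfotransferase of mouse hepatocytes, had the most negative difference of all members tested. It had 4.08, 16.2 and 80.9 CPM in tumours, against 118.5, 640.1 and 994 CPM in non-tumour liver (−4.81 ± 0.36, limma adjusted p = 3.83e-11), with no overlap. It was also the Sult gene with the highest level per length in non-tumour liver, at 185.3 CPM per kilobase against 7.505 CPM per kilobase in tumours. Sult1a1, the phenol sulfotransferase, took first place in tumours at 177.3 CPM per kilobase, against 145.7 CPM per kilobase in non-tumour liver, and its own difference of 0.26 ± 0.13 was not called (limma adjusted p = 0.0808). Leaving out WT alcohol tumour 6, IL17RA-/- HFD tumour 5 or IL17RA-/- HFD non-tumour 3 gave Sult1a1 an adjusted p of 0.0302, 0.0132 or 0.043 by limma. Sult1d1, which sulfates catecholamines, fell by 0.80 and Sult1b1, which acts on thyroid hormones, by 1.67 on the log2 scale. Sult5a1 had 0, 0.606 and 4.84 CPM in tumours, against 3.31, 7.63 and 20.2 CPM in non-tumour liver (−2.50 ± 0.24, limma adjusted p = 2.52e-09). Sult5a1 passed the filter only with non-tumour liver, so its call is no separate support for a fall. Sult2a7 reached at most 0.186 CPM in tumours and 4.36 CPM in non-tumour liver (−0.77 ± 0.16, limma adjusted p = 0.000233). Sult1c2 fell by 0.30, close to the threshold, and the call was lost in 20 of the alternatives run, 18 of which leave out a single library (limma adjusted p 0.0506 to 0.114).

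The Sult genes that rose were all low. In mouse liver Sult2a1 and Sult2a2 are known as female-biased genes. Sult2a2 had 0, 1.24 and 18 CPM in tumours, against at most 0.43 CPM in any non-tumour liver (1.56 ± 0.36, limma adjusted p = 0.00053). Sult2a2 shares 62.1% of its 50-base stretches with other genes, most often Sult2a1. Its highest values, 18, 9.38 and 8.54 CPM, came from 1 WT HFD and 2 WT alcohol tumours, and 2 tumours were at 0. Sult2a1, Sult2a5 and Sult2a6 also rose, to at most 8.28, 3.92 and 2.03 CPM in tumours, against at most 0.17, 0.465 and 0.215 CPM in non-tumour liver. Sult2a1 to Sult2a6 together had 0.232 to 31.5 CPM in tumours, against at most 0.931 CPM in non-tumour liver, which is 9 counts in IL17RA-/- HFD liver 3. Because the non-tumour values are near 0, these differences depend on the pseudocount of 1 and bound no fold. Sult2a1, Sult2a2, Sult2a5 and Sult2a6 also passed the filter through tumours alone, so their calls are no separate support for a rise. Sult2b1, which sulfates cholesterol and pregnenolone, had 0.165, 0.968 and 2.01 CPM in tumours, against at most 0.345 CPM in non-tumour liver (0.89 ± 0.12, limma adjusted p = 7.36e-07). Sult2b1 too passed the filter through tumours alone. Sult4a1, a brain isoform with no settled substrate, had 0, 1.97 and 5.16 CPM in tumours, against at most 2.17 CPM in non-tumour liver (1.24 ± 0.27, limma adjusted p = 0.000253). Sult4a1 passed the filter only with tumours, so its call is likewise no separate support for a rise. Sult1e1, the oestrogen sulfotransferase, ranged from 0 to 43.1 CPM in tumours, against 0.153 to 6.63 CPM in non-tumour liver, and was not called (0.62 ± 0.40, limma adjusted p = 0.179). Without WT HFD tumour 4 Sult1e1 was called (0.89, limma adjusted p = 0.0333).

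The 8 members that were not tested were at or near 0. Gstt4, Sult1c1 and Sult3a2 had no count in any library. Gsto2, Ugt2a2, Sult2a3 and Sult2a4 reached at most 0.43 CPM, and Sult3a1, known as female-specific in mouse liver, reached 1.9 CPM in its highest library.

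Members whose tumour and non-tumour values did not overlap over all 13 and 16 libraries numbered 7 of 53 (13.2%), all lower in tumours, against a background of 3.3% of genes lower and 2.84% higher. They were Gstk1, Gstz1, Sult2a8, Ugt1a1, Ugt2a3, Ugt3a1 and Ugt3a2. No member was higher in tumours without overlap.

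The tumour difference was next taken within each diet and genotype. Among IL17RA-/- mice on alcohol 30 of 53 members (56.6%) were called, against 39.9% of all genes, and among WT mice on alcohol 32 (60.4%), against 35.7%. On HFD, 24 members (45.3%) were called among IL17RA-/- mice, against 40.4% of all genes, and 15 (28.3%) among WT mice, against 15.3%. Falls outnumbered rises in all 4 groups, at 26 to 4, 26 to 6, 22 to 2 and 12 to 3 in that order, against 2465 to 2961, 2602 to 2254, 2246 to 3242 and 1034 to 1038 among all genes. The members' medians were −0.69, −0.99, −0.74 and −0.27. The last group holds WT HFD tumour 4, and without that library 24 members were called there, 17 lower and 7 higher (median −0.50), against 1581 lower and 1188 higher of 13568 genes (20.4%). Without WT HFD tumour 5 or tumour 6 the members' median in that group was −0.08 or −0.09.

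In all 4 groups 12 of 53 members fell (22.6%), against 6.29% of all genes: Gsta3, Gstk1, Gstz1, Sult1b1, Sult2a8, Sult5a1, Ugt1a1, Ugt2a3, Ugt2b1, Ugt2b36, Ugt3a1 and Ugt3a2. Of these, Sult5a1 passed the filter only with non-tumour liver, which largely fixed its direction in advance. Sult2b1 alone rose in all 4 (1 of 53 members, 1.89%), by 0.86 to 0.92, against 5.03% of all genes. It passed the filter through tumours alone, so its direction was largely fixed in advance. Single libraries decided the Sult2b1 call in 2 groups: it was lost in WT mice on alcohol without tumour 5, and in WT mice on HFD without tumour 5, tumour 6, non-tumour 2 or non-tumour 3 (limma adjusted p 0.0565 to 0.0883). Gstm5 rose in 3 groups and had 0.53 (limma adjusted p = 0.0523) in WT mice on alcohol. Its calls on HFD were lost when any of several single libraries was left out, in WT mice tumour 4, tumour 6 or any non-tumour library, and in IL17RA-/- mice tumour 4, tumour 6, non-tumour 1 or non-tumour 2 (limma adjusted p 0.0598 to 0.18). Both were also lost with median-ratio rescaling (limma adjusted p = 0.0765 in WT and 0.0736 in IL17RA-/- mice), and that in WT mice with a pseudocount of 0.1, with no filter or with the compared groups only (limma adjusted p = 0.0532, 0.0636 and 0.2). Its call in IL17RA-/- mice on alcohol was lost without tumour 7 (limma adjusted p = 0.0587) and with the replicate block (limma adjusted p = 0.051). Gstp2 rose in IL17RA-/- mice on alcohol (1.86) and in WT mice on HFD (3.01), and had 1.40 and 1.92 in the other 2 groups, where it was not called. The Gstp2 call in IL17RA-/- mice on alcohol was lost without tumour 6, tumour 7, non-tumour 1 or non-tumour 3 (limma adjusted p 0.0507 to 0.118), and that in WT mice on HFD without non-tumour 3 (limma adjusted p = 0.0661). Sult2a1, Sult2a2 and Sult2a5 were called in WT mice on alcohol, and Sult2a2 had differences of 0.97 to 2.14 over the 4 groups. All 3 of these calls were lost without tumour 4 or without tumour 5 (limma adjusted p 0.0519 to 0.15). Whether these differences themselves vary was tested across both diets and both genotypes. Neither the tissue by genotype nor the tissue by diet interaction called a member, against 0% of all genes for each. The genotype interaction averages both diets, and in tumours most members' genotype differences had opposite signs on the diets, as given below. It therefore cannot show a variation that runs opposite ways on the diets, and no interaction within a single diet was tested. At an unadjusted p under 0.05, limma gave 1 member of 53 for genotype, Gsta3 (−0.60, adjusted p = 0.506), against 9.32% of all genes, and 3 for diet, Ugt1a5, Gsto1 and Ugt1a10, against 3.67%. A count model, limma-voom on recovered counts, also called no member in either.

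Other gene groups and cell markers that differ between the tissues are given here beside these results, and their part in them was not tested. Of all genes tested in this comparison, 36.6% were higher and 27% lower in tumours. All 9 tested markers of pericentral hepatocytes, the zone where many conjugating enzymes are highest, fell (median −2.61), with a summed level of 228 to 4135 CPM in tumours against 5446 to 12454 CPM in non-tumour liver. Of 12 male-biased liver genes outside the members 11 fell and none rose (median −3.36), with sums of 1747 to 9093 CPM in tumours against 10719 to 35880 CPM in non-tumour liver. Of 10 tested female-biased genes 3 rose and 1 fell, with sums of 113 to 488 CPM in tumours against 14.4 to 316 CPM in non-tumour liver. Hepatocyte markers divided, with 4 of 10 higher and 5 lower. All 7 Kupffer cell markers fell, to a sum of 91.2 to 403 CPM in tumours, against 199 to 1358 CPM in non-tumour liver. Of 7 tested cholangiocyte markers 6 rose, with sums of 89.1 to 1679 CPM in tumours against 24.3 to 139 CPM in non-tumour liver. Stellate cell and fibroblast markers had 6 of 8 higher and 2 lower, endothelial markers 0 of 6 higher and 1 lower, and T and NK cell markers 1 of 7 higher. All 6 tested oncofetal and all 6 cell cycle genes rose.

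Genes for the supply of the conjugated groups are set beside the same shares over all genes, 36.6% higher and 27% lower. Of 20 genes for glutathione supply and disposal, 7 rose and 12 fell (median −0.39). Slc7a11, which imports cystine, rose to 178 ± 212 CPM in tumours, against 12.9 ± 21.4 CPM in non-tumour liver (3.47 ± 0.64, limma adjusted p = 4.29e-05). Cth, which makes cysteine from methionine, fell to 60.5 ± 17.6 CPM in tumours, against 310 ± 117 CPM in non-tumour liver (−2.26 ± 0.16, limma adjusted p = 1.04e-11). The subunits of the first enzyme of glutathione synthesis moved apart, with Gclc at 0.48 and Gclm at −0.68, both called. Of 11 genes for UDP-glucuronate, 4 rose and 2 fell (median 0.05), and neither count exceeds the share over all genes. Ugdh, the enzyme that makes UDP-glucuronate, fell by 0.71, while the sugar enzyme Pgm2 rose by 1.32 on the log2 scale. Of 15 tested genes for sulfate supply, 3 rose and 8 fell (median −0.48). Suox, which oxidises sulfite to sulfate, fell by 2.85, Ethe1, an enzyme of sulfide oxidation, by 1.39, and Papss2, which makes the sulfate donor, by 0.48.

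Other conjugating enzymes outside the members fell as well, 16 of 23 tested against 4 that rose (median −1.08). The shares over all genes, 36.6% higher and 27% lower, apply to each list here. The methyltransferases Nnmt and Inmt fell by 4.04 and 3.81, and the microsomal transferase Mgst1 fell to 832 ± 373 CPM in tumours, against 3825 ± 599 CPM in non-tumour liver (−2.30 ± 0.12, limma adjusted p = 1.3e-13). Of 23 regulators 5 rose and 10 fell (median −0.17). Nr1i3, which encodes CAR, fell by 2.34. Hnf4a was not called (0.10, limma adjusted p = 0.216). NRF2 targets outside the members had 10 of 17 higher and 5 lower (median 0.70), led by Slc7a11 and Osgin1, which rose by 2.25. Nqo1, the quinone reductase, rose by 1.29. The lists share genes: Slc7a11, Gclc, Gclm and Abcc4 are in both the glutathione and the NRF2 list.

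Genotype was compared within tumours and within non-tumour liver. In HFD tumours of mice labelled IL17RA-/- against WT, no member was called by limma, against 1.61% of 13269 genes (80 higher and 133 lower, and 416 higher and 210 lower with the libraries rescaled by median ratios). At an unadjusted p under 0.05 there were 18 of 49 members (36.7%), against 22.5% of all genes. Of the 49 members tested 44 had a negative difference and 5 a positive one, while 42.1% of all genes had a positive one. The members' median was −0.71, against −0.09 for all genes. In 18 members (36.7%) the 3 IL17RA-/- tumours all lay below the 3 WT tumours, against 16.5% of genes with that pattern, and in 0 members they all lay above, against 8.15% of genes. With 3 libraries a group, an exact permutation test of a single gene cannot go below 0.1.

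The members with the smallest p were these. Gsta3 had 125, 117 and 218 CPM in IL17RA-/- HFD tumours, against 749, 264 and 308 CPM in WT HFD tumours (−1.41 ± 0.35, limma adjusted p = 0.0558). Ugt3a2 had 23.4, 37.6 and 29.6 CPM in IL17RA-/- HFD tumours, against 163, 45.2 and 79.2 CPM in WT HFD tumours (−1.46 ± 0.38, limma adjusted p = 0.0606). Ugt2b5 had 188, 249 and 279 CPM in IL17RA-/- HFD tumours, against 1230, 378 and 495 CPM in WT HFD tumours (−1.38 ± 0.38, limma adjusted p = 0.0700). In all 3 genes the groups did not overlap and WT tumour 4 was the highest.

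Gsta1 had 84.5, 54 and 64 CPM in IL17RA-/- HFD tumours, against 605, 500 and 168 CPM in WT HFD tumours (−2.46 ± 0.72, limma adjusted p = 0.0833). Sult1e1 had 2.63, 0 and 0 CPM in IL17RA-/- HFD tumours, against 1.97, 18.6 and 43.1 CPM in WT HFD tumours, with overlap (−3.16 ± 0.96, limma adjusted p = 0.0911). Ugt1a9 had 4.37, 5.86 and 0.891 CPM in IL17RA-/- HFD tumours, against 458, 5.35 and 5.76 CPM in WT HFD tumours (−2.72, limma adjusted p = 0.243). The difference of Ugt1a9 rests on WT tumour 4, without which it was −0.67, and likewise that of Gstm3 was −1.83 with and −0.53 without it. Gsta1 kept −2.11 and Gsta3 −0.95 without it. The positive differences among members at 5 CPM or more were not called, at 0.35 for Gstt2, 0.18 for Sult1d1 and 0.11 for Gstm7. Without WT tumour 4 they were 0.81 for Gstt2 (limma adjusted p = 0.209), −0.18 for Sult1d1 and 0.19 for Gstm7, and without WT tumour 5 that of Gstm7 was −0.0056.

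**Figure D4:**
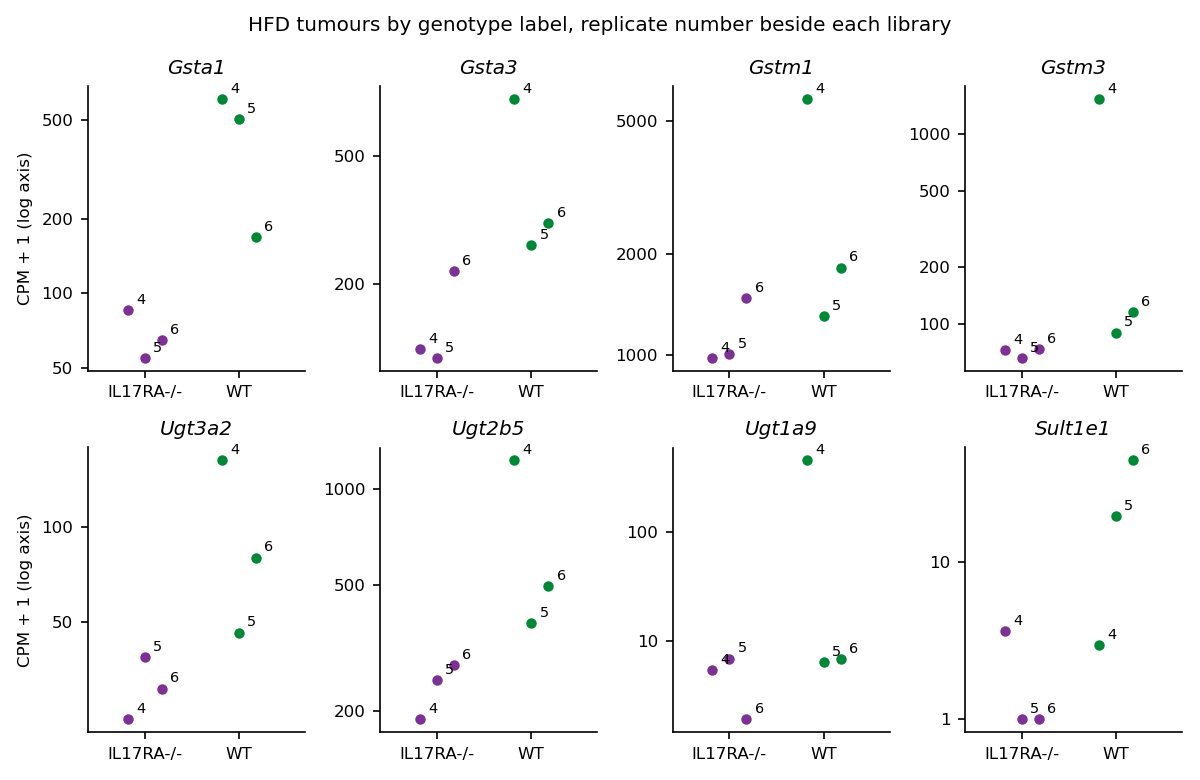
CPM (log axis) of members in the 3 HFD tumours labelled IL17RA-/- (left) and the 3 of WT mice (right), 1 point per library, plotted as CPM + 1 with its replicate number. WT tumour 4 is the highest point for Gsta3, Ugt2b5, Ugt3a2 and Ugt1a9.

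This comparison moved with single libraries. Without WT HFD tumour 4 limma called 0 members and, of all genes, 0 higher and 3 lower. There 12 of 48 members had an unadjusted p under 0.05, against 16.7% of all genes, and the median was −0.52 against −0.04. Without WT HFD tumour 5 it called 7 members lower, namely Gsta3, Gstm6, Ugt2b5, Ugt2b35, Ugt2b36, Ugt3a1 and Ugt3a2, and of all genes 666 higher and 508 lower. With all libraries kept these were 80 higher and 133 lower, so calls rose among all genes as well. With the libraries rescaled by the median ratio of expressed genes, Gsta3 alone was called (−1.35, limma adjusted p = 0.0455). NRF2 targets outside the members moved the same way: 16 of 17 had a negative difference (median −1.14), with sums of 1477, 1721 and 1922 CPM in IL17RA-/- HFD tumours against 6066, 4411 and 2541 CPM in WT HFD tumours. Of these Me1 was called (−1.56, limma adjusted p = 0.0373). Summed pericentral markers were 228 to 814 CPM in IL17RA-/- HFD tumours against 666 to 3638 CPM in WT HFD tumours, with 8 of 9 negative and none called. Summed cholangiocyte markers were 218 to 273 CPM in IL17RA-/- against 354 to 1679 CPM in WT HFD tumours. Female-biased genes summed to 392 to 488 CPM in IL17RA-/- against 113 to 220 CPM in WT HFD tumours. For endothelial markers the sums were 429 to 485 CPM in IL17RA-/- and 241 to 411 CPM in WT HFD tumours. Sums of hepatocyte, Kupffer cell, T and NK cell, stellate cell, oncofetal, cell cycle and male-biased genes overlapped. The part of these gene groups in the members' values was not tested.

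In alcohol tumours of mice labelled IL17RA-/- against WT 41 of 49 members had a positive difference, as did 67.6% of all genes. The members' median was 0.31, against 0.09 for all genes. No member was called, against 0% of all genes, and 1 (2.04%) had an unadjusted limma p under 0.05, against 1.97% of all genes. Without WT alcohol tumour 6 the members' median was 0.09, against 0.08 for all genes. The member with an unadjusted p under 0.05 was Ugt3a2, at 49, 40.2, 84 and 74.1 CPM in IL17RA-/- alcohol tumours and 31.7, 32.3 and 36.2 CPM in WT alcohol tumours (0.81 ± 0.35, limma adjusted p = 0.9999). Gsta3 had 244 to 359 CPM in IL17RA-/- alcohol tumours and 139 to 217 CPM in WT alcohol tumours (0.69 ± 0.32). As the mean of both diets, genotype called 0 members in tumours, against 0.0301% of all genes (4 genes), and no member had an unadjusted p under 0.05, against 13.5% of all genes. The members' medians were −0.71 on HFD and 0.31 on alcohol, so this mean partly cancels differences of opposite sign.

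Alcohol against HFD in tumours also called no member by limma. Among WT tumours, where 0.00754% of all genes (1 gene) were called, 17 of 49 members had an unadjusted p under 0.05, against 16% of all genes, and the median was −0.63 against −0.17. Without WT HFD tumour 4 they were 8 of 48 members, against 11.6% of all genes, and a median of −0.26 against −0.10, and without WT alcohol tumour 6 they were 9 of 49 members, against 9.15%, and a median of −0.43. These values share the 3 WT HFD tumours with the genotype comparison above. Gsto1 had 29.1 to 45.3 CPM in WT alcohol tumours against 57.2 to 83.9 CPM in WT HFD tumours, with no overlap (−1.07 ± 0.25, limma adjusted p = 0.170). Gsta1 had 91.3 ± 62.9 CPM in WT alcohol tumours and 424 ± 228 CPM in WT HFD tumours (−2.40 ± 0.72, limma adjusted p = 0.200). Among IL17RA-/- tumours 0% of all genes were called, and 2 members (4.08%) had an unadjusted p under 0.05, against 2.21% of all genes. They were Gsta3 (0.96 ± 0.32) and Ugt3a2 (0.97 ± 0.35), both with more RNA on alcohol. As the mean of both genotypes 0% of all genes were called, and 2 members (4.08%) had an unadjusted p under 0.05, Ugt1a5 (−1.29 ± 0.38) and Gsto1 (−0.56 ± 0.17), against 5.68% of all genes.

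In non-tumour liver neither genotype nor diet called a member in any of 6 comparisons by limma, against 0% of 12829 genes in each. At an unadjusted p under 0.05, the genotype comparisons gave 4 of 47 members on alcohol, 1 on HFD and 2 as the mean of both diets, against 2.57%, 3.59% and 2.4% of all genes. Ugt1a5 had 48.2 ± 17.2 CPM in IL17RA-/- livers and 24 ± 3.85 CPM in WT livers on alcohol (0.92 ± 0.26, SD over 5 libraries each, limma adjusted p = 1.0). Gsto1 had 69 ± 7.69 CPM in IL17RA-/- livers and 86.7 ± 4.14 CPM in WT livers on alcohol (−0.33 ± 0.10, limma adjusted p = 1.0). The diet comparisons gave 3 members in IL17RA-/- livers, 6 in WT livers and 3 as the mean of both genotypes, against 5.81%, 4.22% and 5.73% of all genes. Sult2a8 had 724 ± 137 CPM in WT livers on alcohol and 398 ± 411 CPM in WT livers on HFD (1.36 ± 0.54, limma adjusted p = 0.876). Its 3 WT HFD livers were at 206, 870 and 118.5 CPM, and their range overlapped that of the 5 WT alcohol livers.

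Within a group of non-tumour livers some members spread widely. IL17RA-/- alcohol livers 2 and 4 had Sult2a8 at 994 and 965 CPM, against 118.5 to 914 CPM in the other 14 livers, and Ugt2b1 at 1405 and 1426 CPM, against 451 to 1313 CPM. Ugt2b38 stood at 33.1 and 18.4 CPM in them, against 0.496 to 7.79 CPM in the others, and Gstm6 at 84.8 and 84.4 CPM, against 32.8 to 53.8 CPM. Gsta1 went the other way, at 3.49 and 15.1 CPM, against 42.9 to 157 CPM in the other livers. Both livers also lay beyond the range of the others in genes outside the members, liver 4 only narrowly for the male-biased sum. Their summed Kupffer cell markers were 211 and 199 CPM, against 534 to 1358 CPM in the others, their summed male-biased genes 35880 and 25732 CPM, against 10719 to 25148 CPM, and Nqo1 3.77 and 7.59 CPM, against 9.28 to 34 CPM. Their values enter the genotype and diet comparisons of that group, and the part of these genes in them was not tested.

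**Figure D5:**
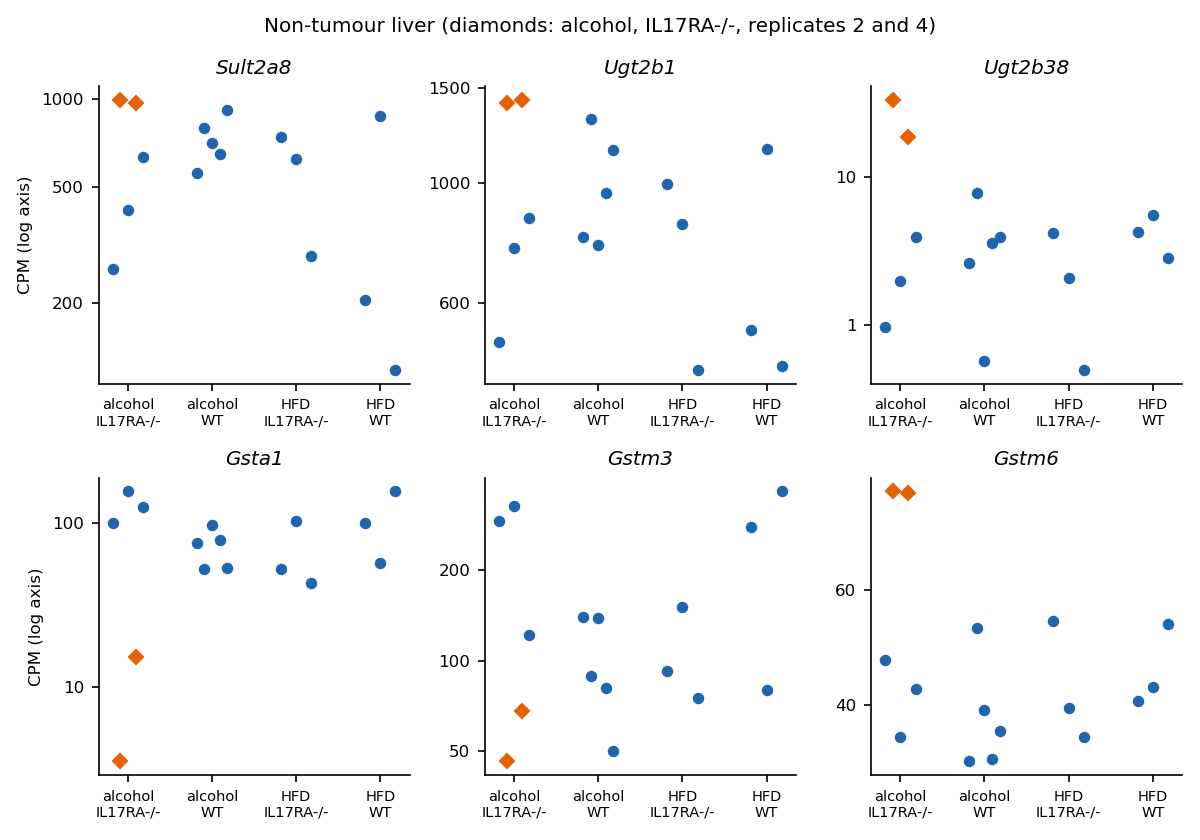
CPM (log axis) of members across the 16 non-tumour libraries, 1 point per library, by group. IL17RA-/- alcohol livers 2 and 4 are highest for Sult2a8, Ugt2b1, Ugt2b38 and Gstm6 and lowest for Gsta1, and are drawn as diamonds.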

How the data were processed

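The deposited table held 29 libraries of mouse tumours and non-tumour liver in CPM, which the authors made before deposit. Per the submitters' processing notes, STAR 2.5.1a, RSEM 1.3.0 and build GRCm38 were used, and per the labels' protocols the libraries were strand-specific and poly(A)-selected. Each column summed to 1000000. Steps in the low values gave back whole counts for 83.4% to 86% of values (within 0.002), and from them each library's depth. Intervals from depth cover counting error only.

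Groups were taken from the labels. log2(CPM + 1) was fitted with limma 3.58.1 in R 4.3.3 (limma-trend, two-sided, Benjamini-Hochberg) over genes that reached 1 CPM in 3 or more of the libraries fitted, which were all 29 libraries for the tissue comparisons and interactions, 13 for tumours and 16 for non-tumour liver. The fit was tested on simulated data. Log2 differences on CPM + 1 understate changes of low genes. A member was called at an adjusted p under 0.05.

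Members, lists and tests were chosen with earlier results of these data known. Genes were named by a rule: per superfamily up to 6 called each way in the mean tissue comparison at 5 CPM or more, up to 5 each way in other comparisons, the 3 most abundant per length, 16 fixed genes, and in HFD tumours up to 3 each way. Other genes and libraries that are named were picked after their values were seen.

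Promoters came from RefSeq (GRCm38.p6) and gene positions and exon lengths from GENCODE (Python 3.11.15, Biopython 1.88). Shared sequence is the share of a gene's 50-base transcript stretches found in transcripts of another gene. Replicate numbers were tested for pairing by the correlation of deviations from group means. They met the rule in WT non-tumour livers, alcohol against HFD (0.345, 0.274 and 0.14), and the fit with replicate number as a block also called 0 members there. Alternatives were another pseudocount, no filter, median-ratio rescaling, limma-voom on recovered counts, the compared groups only and the replicate block. Others left out each library in turn, or 4 libraries that stood apart together. Those 4 were WT HFD tumour 4, IL17RA-/- alcohol tumour 5, IL17RA-/- HFD non-tumour 3 and WT HFD non-tumour 1. Some listed genes and 1 searched motif are not reported here.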

Additional observations from a re-analysis of the deposited data

Results flagged for a closer look

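Within groups of 4 to 5 libraries, 7 of 96 pairs of a group and a member had 1 library far from the others by Dixon's criterion at 95%, and chance marks about 1 in 20 groups. IL17RA-/- alcohol tumour 7 was high for 3 members: Gstk1 at 37.03 CPM (others 16.1 to 19.4), Gstt3 at 53.52 CPM (others 7.89 to 14.4) and Ugt1a9 at 100.5 CPM (others 6.37 to 20.9). Sult1e1 was high in IL17RA-/- alcohol tumour 6 at 16.58 CPM (others 1.24 to 3.39) and in IL17RA-/- alcohol non-tumour 4 at 4.358 CPM (others 0.594 to 0.837). Ugt1a9 was high in IL17RA-/- alcohol non-tumour 3 at 235.6 CPM (others 36.7 to 88.5). Gsta2 was low in WT alcohol non-tumour 1 at 36.9 CPM (others 57.6 to 61.9).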

How the results depend on the processing

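For the mean tumour against non-tumour comparison 40 members were called, and 26 with replicate number as a block (24 lower and 2 higher), where Gstp1, Gstp2, Gstt1, Sult1c2 and Sult2a1 were among those not called. Most replicate numbers occur in a single tissue, so the block largely coincides with tissue. Changes under the block in tissue comparisons therefore cannot be read as an effect of pairing. Outside the WT non-tumour livers the numbers did not pair the samples by the rule, with correlations of −0.21 to 0.415, and no paired analysis was possible for the HFD tissue comparisons because their numbers do not meet. In WT mice on HFD 15 members were called, 6 with the compared groups only, and 10 to 24 when each library was left out, 24 of them without tumour 4 and 10 without tumour 5 or non-tumour 2. In HFD tumours by genotype 0 members were called, 1 with median-ratio rescaling, and 0 to 7 when each library was left out, 7 without WT tumour 5. The cause was not tested. Leaving out each library gave 37 to 44 members for the mean comparison, 26 to 29 and 23 to 31 for IL17RA-/- and WT mice on alcohol, 20 to 27 for IL17RA-/- mice on HFD, and 0 for every other genotype, diet and interaction comparison, where limma-voom on recovered counts also called 0. Calls among all genes also moved with single libraries, in WT mice on HFD and in HFD tumours by genotype. These ranges therefore show dependence on libraries only and do not set members against all genes. Of 70 results for single members, 46 stayed on the same side of the threshold under every alternative run. No called result changed sign, but 5 uncalled ones did. In the mean tissue comparison Gstm1 (0.04) had −0.12 to 0.19 when each library was left out and −0.051 without the 4 libraries that stood apart. Gstm3 (−0.01) had −0.34 to 0.18 and 0.80 with the block, and Sult1e1 (0.62) had −0.24 with the block. In HFD tumours by genotype Gstm7 (0.11) had −0.0056 to 0.19, and Sult1d1 (0.18) had −0.18 to 0.62 and −0.18 without the 4 libraries. Among all genes, calls for the mean comparison were 4968 higher and 3669 lower, and 3050 and 2080 with the block. In HFD tumours by genotype they were 80 and 133, but 36 and 26 with the block, 47 and 99 with no filter, 2 and 3 with the compared groups only, and 0 and 2 without the 4 libraries that stood apart. In WT mice on HFD they were 1038 and 1034, and 194 and 219 with the compared groups only. Groups of 3 to 5 libraries, unknown animals and a floor of 0.311 to 0.934 CPM limit what low members such as Sult2a6 can show.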
